A study of Mus musculus with 21 samples.

Results

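Cyclins and the cyclin-dependent kinases that act in G1 were followed as a set of 10 genes, namely the D cyclins Ccnd1, Ccnd2 and Ccnd3, their kinases Cdk4 and Cdk6, the E cyclins Ccne1 and Ccne2 with Cdk2, the A cyclin Ccna2 and the B cyclin Ccnb1. Members were chosen by name. A probe was matched through its RefSeq accession for 9 of the 10 genes, 17 probes among the 41174 on the arrays. No probe was matched for Ccnd1, which was not analysed here. Each gene is described by its brightest probe over all arrays, 9 of the 29526 probes tested, which name 14312 genes, and all 9 gave a signal well above background on every array.

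Transcripts were measured on 21 one-colour arrays that cover 7 fractions of primary C57BL/6 mouse bone marrow, 3 arrays for each fraction. KLS cells lacked lineage antigens and carried Kit and Sca1, and stood for multipotent progenitors. The erythroid series ran through PreMegE (CD150+, CD105-, FcGr-) and CFUe to Ter119 cells, sorted as CD71+ and Ter119+. The myeloid series ran through PreGM and GMP (CD150-, FcGr+) to Mac1Gr1 cells, sorted as Mac1+ and Gr1+. The labels give CFUe and PreGM the same gate (CD150-, CD105-, FcGr-) and list lin-, ckit+ and sca1+ for all 4 intermediate fractions. They state neither the age nor the sex of the mice, nor whether animals were pooled, so p-values measure the spread between arrays.

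In G1, a D cyclin binds Cdk4 or Cdk6 and the complex phosphorylates the retinoblastoma protein, which releases E2F factors. E cyclins with Cdk2 then drive entry into S phase, cyclin A2 serves S phase and G2, and cyclin B1 with Cdk1 drives mitosis. In blood formation, cyclin D3 and Cdk6 are known for their part in erythroid and lymphoid proliferation, and both mature fractions here are lineages whose last cells leave the cycle.

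Levels are log2 intensities after background correction, set so that 0 is the 75th percentile of each array, and 1 unit is a 2-fold difference. They are compared between fractions for 1 gene at a time, since probes of different genes are not on a common scale. A change was called at an adjusted p under 0.05 (limma, Benjamini-Hochberg over all probes tested) and at least 2-fold. In bulk samples, fewer cells of a type and less RNA per cell cannot be told apart.

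The array 75th percentile lay between 7.61 and 8.19 (log2) in Ter119 and between 8.43 and 8.65 in Mac1Gr1, and between 8.98 and 9.98 in the other fractions, and 56.4% to 77.4% of spots were well above background. Xist, made from the inactive X chromosome of females, was at 3.90 or above in 10 arrays (all GMP and Mac1Gr1, CFUe replicates 1 and 2, PreGM replicates 1 and 2) and at -4.47 or below in the other 11, where the Y-linked Ddx3y was high, so the signs of sex differed between fractions and within CFUe and PreGM, and their part in the results was not tested beyond the block given below. The summed level of 12 granulocytic genes was 12.2 to 12.5 on the Ter119 arrays, 12.4 to 12.5 on the Mac1Gr1 arrays and 2.55 to 5.50 in CFUe, and all 12 were well above background on each Ter119 array. The summed level of 9 B cell genes was 6.83 to 7.34 in Ter119, 4.70 to 5.53 in Mac1Gr1 and at most 3.40 elsewhere. The summed level of the 12 erythroid genes was highest on the 3 Ter119 arrays, and was 8.94 to 8.98 in CFUe and 1.95 to 2.22 in Mac1Gr1. This held for the sum and not for each gene, since some, such as Gata1 and Car1, had a higher mean in CFUe than in Ter119. The Ter119 fraction thus held leukocyte transcripts beside erythroid ones, and their part in the Ter119 values below was not tested.

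The terminal steps carried most of the change. From CFUe to Ter119, Ccnd3 and Ccne2 rose and Ccnd2, Cdk4, Cdk6, Ccne1 and Ccnb1 fell, which is 7 of 9 genes against 57.2% of all probes tested. From GMP to Mac1Gr1, Ccnd3 rose and Ccnd2, Cdk4, Cdk6, Ccne1, Ccne2, Ccna2 and Ccnb1 fell, 8 of 9 against 56.7%. The median change of the 9 genes was -1.15 at the erythroid step and -2.06 at the myeloid step, beside 0.05 and 0.17 over all probes. Of all probes, 29.2% rose and 28% fell at the erythroid step, and 29.1% rose and 27.6% fell at the myeloid step. With arrays scaled to spike-in RNAs, the median of all probes itself moved by -1.33 and -1.86 at these 2 steps. On that scale the myeloid calls were kept, Ccnd3 in Ter119 against CFUe was 0.21 (adjusted p = 0.494), Ccne2 turned to -0.20 (adjusted p = 0.438), and Ccna2 (-1.51) and Cdk2 (-2.43) were called lower. The levels of this Cdk2 probe followed the run of slide numbers, as given below.

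Before the terminal steps fewer genes moved. From PreMegE to CFUe, Ccne1, Ccne2, Ccna2 and Ccnb1 rose, 4 of 9 genes beside 24.7% of probes called in either direction and 9.96% called higher. On the spike-in scale, where the median of all probes at this step was -0.39, 1 gene was called higher (Ccne1) and 2 lower (Ccnd2 at -1.34 and Cdk6 at -1.36), and Ccne2 (0.88), Ccna2 (0.64) and Ccnb1 (0.97) were not called. Cdk6 alone rose from KLS to PreMegE (1 of 9, beside 12.4% called and 3.55% called higher) and from KLS to PreGM (1 of 9, beside 8.63% and 2.11%), and alone fell from PreGM to GMP (1 of 9, beside 10.4% called and 6.36% called lower). These shares are close to the background, so the count at these 3 steps is no result about the set.

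**Figure D1:**
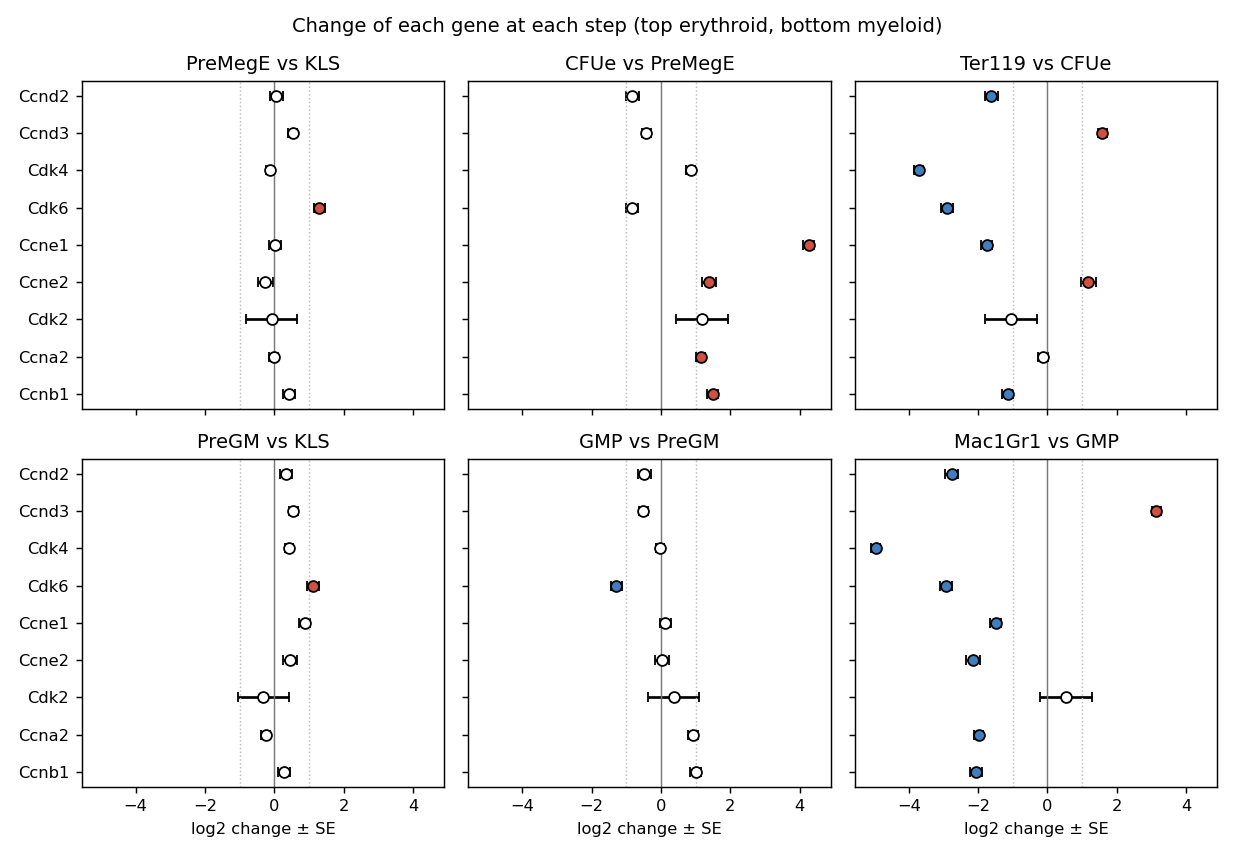
Change of the 9 genes at the 3 erythroid steps (top row) and the 3 myeloid steps (bottom row), as log2 change with its standard error (limma, 3 arrays per fraction); red points were called higher, blue points called lower, open points not called, and dotted lines mark 2-fold. Ccnd3 lies to the right and Ccnd2, Cdk4 and Cdk6 lie to the left in both terminal steps, and Ccne1 has its largest change, 4.26, from PreMegE to CFUe. On the spike-in scale, not shown, Ccnd3 in Ter119 against CFUe was 0.21 and not called.

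Promoter sequence is shown for the D cyclin kinases Cdk4 and Cdk6, which fell at both terminal steps, for Ccnd3, which rose at both, and for Ccnb1, which fell at both after rising in CFUe. RefSeq windows on GRCm38.p6 were matched for 6 of the 10 genes, 7 windows in all, and the 250 bases before each start site are printed 5′ to 3′ on the strand of the gene. Capitals mark CACGTG (the E-box bound by MYC, MAX and related factors) in Cdk4, Cdk6 and Ccnd3, and CCAAT in either orientation (the CCAAT box bound by NF-Y) in Ccnb1.
Cdk4 (chr10:127063285-127063534, plus strand): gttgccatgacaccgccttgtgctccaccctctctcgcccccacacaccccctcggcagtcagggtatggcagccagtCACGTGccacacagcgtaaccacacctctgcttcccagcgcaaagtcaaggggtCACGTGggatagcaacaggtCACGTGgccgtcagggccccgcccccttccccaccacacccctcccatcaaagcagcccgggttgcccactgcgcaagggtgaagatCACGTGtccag
Cdk6 (chr5:3343643-3343892, plus strand): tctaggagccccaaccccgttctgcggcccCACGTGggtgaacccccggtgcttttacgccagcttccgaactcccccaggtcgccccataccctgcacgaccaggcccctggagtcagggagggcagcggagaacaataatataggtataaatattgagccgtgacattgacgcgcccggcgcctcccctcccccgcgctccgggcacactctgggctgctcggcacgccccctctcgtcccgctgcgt
Ccnd3, first start (chr17:47504801-47505050, plus strand): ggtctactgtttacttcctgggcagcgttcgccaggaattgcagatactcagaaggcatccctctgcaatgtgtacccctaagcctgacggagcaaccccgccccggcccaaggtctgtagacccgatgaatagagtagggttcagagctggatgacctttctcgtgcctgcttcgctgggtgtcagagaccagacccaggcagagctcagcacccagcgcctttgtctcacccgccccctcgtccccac
Ccnd3, second start (chr17:47593217-47593466, plus strand): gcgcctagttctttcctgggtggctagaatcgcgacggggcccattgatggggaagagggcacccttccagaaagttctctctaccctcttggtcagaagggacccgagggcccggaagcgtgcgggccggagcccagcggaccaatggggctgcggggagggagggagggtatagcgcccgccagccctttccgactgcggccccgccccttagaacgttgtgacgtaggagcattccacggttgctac
Ccnb1 (chr13:100786487-100786736, minus strand): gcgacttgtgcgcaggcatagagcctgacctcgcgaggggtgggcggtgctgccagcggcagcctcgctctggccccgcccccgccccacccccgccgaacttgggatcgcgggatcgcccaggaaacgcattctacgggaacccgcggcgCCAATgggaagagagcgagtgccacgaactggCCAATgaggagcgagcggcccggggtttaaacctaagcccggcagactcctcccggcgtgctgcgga
Both strands were searched for 4 motifs among 32851 such windows. CACGTG occurred in 6.02% of them. It occurred 4 times for Cdk4, a number reached by 7 windows (0.0213%), once for Cdk6 and in neither window of Ccnd3. CCAAT occurred in 33.8% of windows, 2 times for Ccnb1 (10.1% of windows hold 2 or more) and once each for Cdk2 and the second start of Ccnd3. The E2F-type motif TTTNNCGC occurred in 4.28% of windows, once each for Cdk2 and Cdk6. The cell cycle homology motif TTTGAA occurred in 16% of windows and in none of these 7. The window of Ccne1 held none of the 4 motifs. A match is a description of the letters and not of binding.

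Ccnd2, a D cyclin of growing progenitors, was highest in KLS, PreMegE, PreGM and GMP, lower in CFUe and lowest in both mature fractions. Its levels by array were 3.66, 3.68 and 3.95 in KLS, 3.90, 4.01 and 3.55 in PreMegE, 2.70, 2.82 and 3.47 in CFUe and 1.28, 1.60 and 1.25 in Ter119. On the myeloid side they were 4.09, 4.06 and 4.15 in PreGM, 3.60, 3.71 and 3.55 in GMP and 0.62, 0.91 and 1.06 in Mac1Gr1. The 2 mature fractions did not overlap any other. In Ter119, Ccnd2 fell by 1.62 relative to CFUe (SE 0.18, adjusted p = 4.01e-07), and in Mac1Gr1 it fell by 2.76 relative to GMP (adjusted p = 3.96e-10). In order of level, PreGM, PreMegE, KLS and GMP were each not separated from the next (adjusted p of 0.306, 0.852 and 0.583 between neighbours), and CFUe lay below GMP by 0.62 (adjusted p = 0.00889). From PreMegE to CFUe the difference was -0.82 (adjusted p = 0.00124), under 2-fold. It was past 2-fold and called lower with quantile scaling (-1.21), in the series table (-1.15) and on the spike-in scale (-1.34). The same held on the other 2 probes (-1.05 and -1.06) and without CFUe replicate 3 (-1.06). Replicate 3 was the CFUe array with Ddx3y and had the highest Ccnd2 of the 3. It also had the highest summed level of granulocytic genes (5.50, beside 2.69 and 2.55) and of B cell genes (1.37, beside -0.79 and -0.53). The part of these differences in its Ccnd2 level was not tested.

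Ccnd3, the third D cyclin, moved the other way. It read 3.27, 3.18 and 3.42 in KLS, 3.78, 3.94 and 3.76 in PreMegE, 3.17, 3.55 and 3.50 in CFUe and 4.71, 5.14 and 5.13 in Ter119. In PreGM it read 3.85, 3.88 and 3.79, in GMP 3.23, 3.42 and 3.34, and in Mac1Gr1 6.37, 6.52 and 6.51. All 3 Mac1Gr1 arrays lay above all Ter119 arrays, and these above every other array. Relative to CFUe the rise in Ter119 was 1.59 (SE 0.13, adjusted p = 5.19e-09), and relative to GMP the rise in Mac1Gr1 was 3.14 (adjusted p = 8.08e-13). On the spike-in scale the difference between Ter119 and CFUe was 0.21 (adjusted p = 0.494), not called. Ter119 remained 1.47 below Mac1Gr1 (adjusted p = 3.55e-08). The Ter119 arrays carried granulocytic genes at about the summed level of Mac1Gr1, the fraction with the highest Ccnd3, and the part of those transcripts in the Ter119 value was not tested. PreMegE (0.53, adjusted p = 0.00488) and PreGM (0.55, adjusted p = 0.00494) differed from KLS by less than 2-fold, and in the order of levels CFUe lay below PreMegE by 0.42 (adjusted p = 0.0122), while CFUe, GMP and KLS were not separated from each other as neighbours (adjusted p of 0.632 and 0.846).

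Cdk4, a catalytic partner of the D cyclins, showed the largest falls of the set. Its levels were 3.25, 3.08 and 3.32 in KLS, 3.02, 3.12 and 3.15 in PreMegE, 3.85, 3.99 and 4.02 in CFUe and -0.01, 0.36 and 0.38 in Ter119. They were 3.70, 3.67 and 3.56 in PreGM, 3.64, 3.68 and 3.53 in GMP and -1.56, -1.28 and -1.19 in Mac1Gr1. The 15 progenitor arrays stayed between 3.02 and 4.02, while the 6 mature arrays stood at 0.38 or below. At the erythroid step Cdk4 fell by 3.71 (SE 0.12, adjusted p = 7.49e-14), a 13.1-fold difference, and at the myeloid step it fell by 4.96 (adjusted p = 5.2e-15), a 31.1-fold difference. It stood 1.58 higher in Ter119 than in Mac1Gr1 (adjusted p = 8.63e-09). CFUe had the highest mean, 3.95 ± 0.09 (SD, n = 3), only 0.31 above PreGM (adjusted p = 0.0431).

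Cdk6, the other D cyclin kinase, peaked in the first progenitors of each lineage. It read 1.37, 1.15 and 1.69 in KLS, 2.66, 2.86 and 2.58 in PreMegE, 1.71, 1.69 and 2.17 in CFUe and -0.77, -1.12 and -1.22 in Ter119. It read 2.48, 2.49 and 2.59 in PreGM, 0.98, 1.31 and 1.41 in GMP and -1.73, -1.79 and -1.56 in Mac1Gr1. PreMegE and PreGM together lay above the other 15 arrays and did not differ from each other beyond their spread (0.18, adjusted p = 0.496). The rise over KLS was 1.30 (SE 0.17, adjusted p = 1.59e-05) in PreMegE and 1.12 (adjusted p = 0.000162) in PreGM. The summed level of 12 macrophage genes was 4.82 to 6.28 in KLS, -0.26 to 0.72 in PreMegE and 2.79 to 2.95 in PreGM, and their part in the differences from KLS was not tested. The later fall was 1.28 from PreGM to GMP (adjusted p = 2.71e-05), then 2.93 to Mac1Gr1 (adjusted p = 6.11e-11), and 2.89 from CFUe to Ter119 (adjusted p = 7.54e-11). From PreMegE to CFUe the brightest probe gave -0.84 (adjusted p = 0.000494), under 2-fold, and the step was called lower with quantile scaling (-1.12), in the series table (-1.15), on the spike-in scale (-1.36) and on a second probe (-1.15). On the spike-in scale the differences were 0.84 (adjusted p = 0.00392) for PreMegE against KLS, 0.50 (adjusted p = 0.0688) for PreGM against KLS and -0.27 (adjusted p = 0.228) for GMP against PreGM, none of them called. The 2 probes of Cdk6 did not give the same calls. The second probe gave 1.18 for PreMegE against KLS but 0.89 (adjusted p = 0.00346) for PreGM against KLS and -0.75 (adjusted p = 0.00944) for GMP against PreGM, both under 2-fold. It gave 1.72 (adjusted p = 9.12e-07) for Ter119 against Mac1Gr1, where the brightest probe gave 0.66, and 1.83 (adjusted p = 3.3e-05) for the terminal step between lineages, where the brightest gave 0.035. Without KLS replicate 2 the rise in PreGM was 0.99, also under 2-fold.

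**Figure D2:**
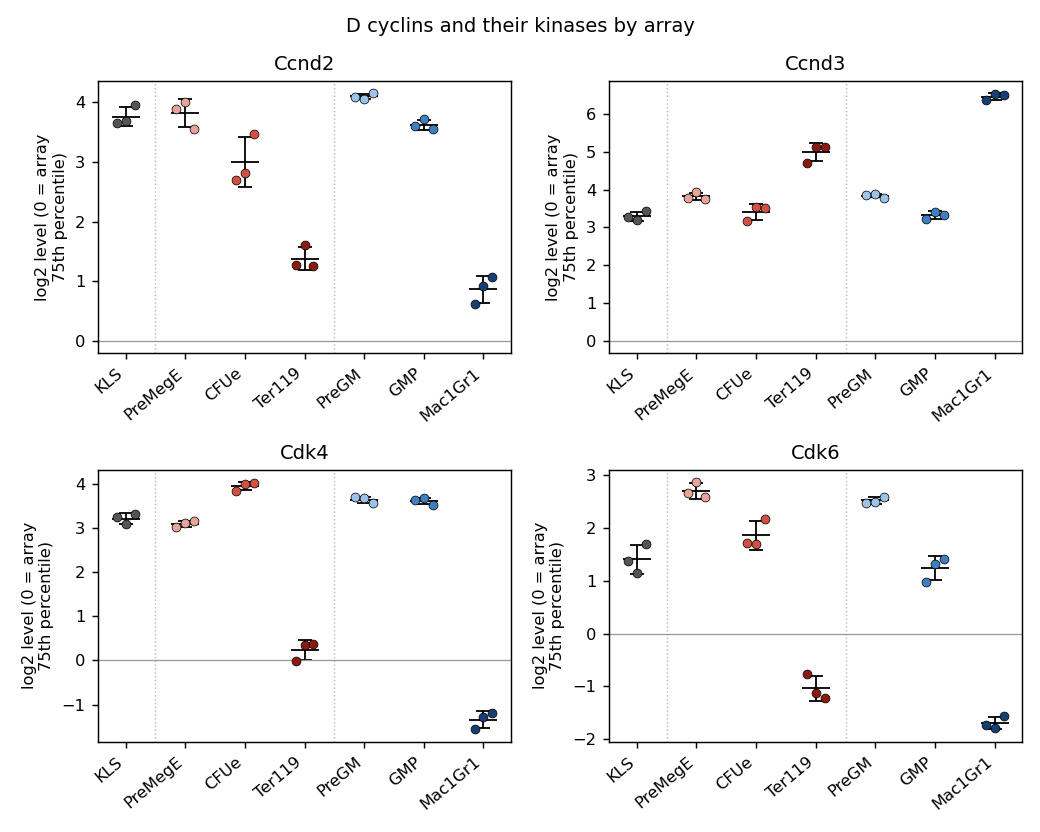
Levels of Ccnd2, Ccnd3, Cdk4 and Cdk6 on each array (points, log2 relative to the 75th percentile of the array) by fraction, with mean and SD of 3 arrays (black); each panel has its own axis. Ccnd3 is highest in Mac1Gr1 and Ter119, where Ccnd2, Cdk4 and Cdk6 are lowest, and Cdk6 peaks in PreMegE and PreGM. On the spike-in scale, not shown, Ccnd3 in Ter119 differed from CFUe by 0.21.

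Ccne1, the E cyclin that activates Cdk2 at the start of S phase, marked CFUe. Its levels were 0.98, 0.93 and 1.45 in KLS, 0.97, 1.25 and 1.20 in PreMegE, 5.25, 5.47 and 5.49 in CFUe and 3.39, 3.58 and 3.98 in Ter119. They were 1.90, 1.87 and 2.22 in PreGM, 2.06, 2.19 and 2.11 in GMP and 0.54, 0.58 and 0.77 in Mac1Gr1. CFUe lay above all other fractions without overlap, then Ter119, then GMP and PreGM, which were not separated (0.13, adjusted p = 0.633). From PreMegE to CFUe, Ccne1 rose by 4.26 (SE 0.16, adjusted p = 7.87e-12), a 19.2-fold difference, while from PreGM to GMP it changed by 0.13. In Ter119 it fell by 1.75 (adjusted p = 3.19e-08), and in Mac1Gr1 it fell by 1.49 (adjusted p = 2.51e-07). CFUe exceeded GMP by 3.28 (adjusted p = 2.92e-11), the only gene of the 9 called in that comparison, in which 26.3% of probes were called and 12.1% called higher. A second, dimmer Ccne1 probe gave 5.13 for the rise in CFUe and -1.02 (adjusted p = 0.208) for Mac1Gr1 against GMP. On 1 PreMegE array that probe was not well above background and read -7.20, beside -2.89 and -2.95 on the others. This array enters the 5.13 and the SE of that probe, 0.72, which all comparisons share. The GMP and Mac1Gr1 arrays did not overlap on it.

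Ccne2, the second E cyclin, was highest in Ter119. It read -2.23, -1.98 and -1.85 in KLS, -2.44, -2.14 and -2.27 in PreMegE, -1.10, -1.11 and -0.47 in CFUe and 0.50, 0.20 and 0.17 in Ter119. In PreGM it read -1.71, -1.81 and -1.18, in GMP -1.67, -1.57 and -1.36, and in Mac1Gr1 -3.89, -3.85 and -3.32. The Ter119 arrays were the only ones above 0. Ccne2 rose by 1.39 (SE 0.21, adjusted p = 2.82e-05) from PreMegE to CFUe and by 1.18 (adjusted p = 6.41e-05) from CFUe to Ter119, where the spike-in scale gave -0.20, and fell by 2.15 (adjusted p = 5.21e-08) from GMP to Mac1Gr1. With the normexp background correction that fall was -0.79 (adjusted p = 6.53e-05), under 2-fold. On the spike-in scale the difference between CFUe and PreMegE was 0.88 (adjusted p = 0.00511), also under 2-fold. Ter119 thus exceeded Mac1Gr1, the lowest fraction, by 3.98 (adjusted p = 7.24e-11). The Ter119 arrays carried granulocytic genes at about the summed level of Mac1Gr1, and B cell genes at a higher summed level than any other fraction. The part of either in the Ccne2 values was not tested. Within CFUe and within PreGM, replicate 3, the array with Ddx3y, was the highest. In each of these fractions replicate 3 also had the highest summed levels of granulocytic and of B cell genes, and their part was not tested. With Xist-high and Ddx3y-high arrays as a block, the rise from CFUe to Ter119 was 0.78 (adjusted p = 0.0016), and blocking on the slide gave 0.91 (adjusted p = 0.0167), both under 2-fold.

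Cdk2, the kinase of the E and A cyclins, had no called change in any comparison, and its 2 probes differed in precision. On the brighter probe, KLS read -1.40, -2.24 and -3.85, PreMegE -1.49, -3.92 and -2.31, CFUe -1.42, -1.49 and -1.26 and Ter119 -1.95, -3.92 and -1.46. PreGM read -3.64, -2.23 and -2.56, GMP -2.78, -3.28 and -1.28 and Mac1Gr1 -1.31, -2.36 and -2.07. Replicates of a fraction differed by an SD of up to 1.30. The levels followed the 2 runs of slide numbers in the array files, between -3.92 and -2.07 on the 12 arrays of one run and between -1.95 and -1.26 on the 9 of the other, which held all 3 CFUe arrays and no PreGM array. The other probe stayed between -3.13 and -2.65 over all 21 arrays, and its largest difference among the 9 comparisons was -0.36 for Ter119 against Mac1Gr1 (adjusted p = 0.00406), under 2-fold.

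**Figure D3:**
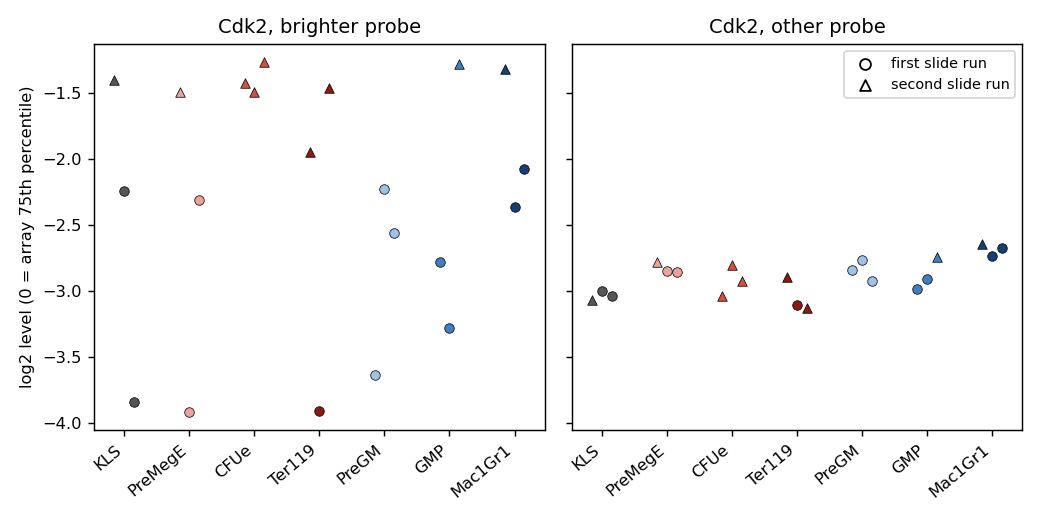
Levels of the brighter Cdk2 probe (left) and of the other Cdk2 probe (right) on each array (points, log2 relative to the 75th percentile of the array), by fraction; circles and triangles are the 2 runs of slide numbers. On the left every triangle lies at -1.95 or above and every circle at -2.07 or below, and on the right all 21 points lie between -3.13 and -2.65.

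Ccna2, the S phase and G2 cyclin, stayed high in Ter119 but not in Mac1Gr1. It read 2.73, 2.82 and 2.85 in KLS, 2.66, 2.84 and 2.86 in PreMegE, 4.01, 4.06 and 3.73 in CFUe and 3.66, 3.74 and 4.0 in Ter119. It read 2.75, 2.46 and 2.44 in PreGM, 3.62, 3.52 and 3.28 in GMP and 1.40, 1.42 and 1.64 in Mac1Gr1. CFUe and Ter119 overlapped, and the Mac1Gr1 arrays were the lowest. Ccna2 rose by 1.15 (SE 0.13, adjusted p = 1.92e-06) from PreMegE to CFUe, differed by -0.13 (adjusted p = 0.373) between Ter119 and CFUe, and fell by 1.99 (adjusted p = 4.64e-10) from GMP to Mac1Gr1. The CFUe difference was 0.77 with quantile scaling and in the series table and 0.99 with the Xist block, all under 2-fold, and 0.64 (adjusted p = 0.139) on the spike-in scale. From PreGM to GMP it was 0.92 (adjusted p = 6.88e-05), also under 2-fold. On the spike-in scale Ccna2 in Ter119 against CFUe was -1.51 (adjusted p = 0.000238), called lower.

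Ccnb1, the mitotic cyclin, peaked in CFUe and GMP, the last progenitor of each lineage. Its levels were -0.24, 0.03 and 0.14 in KLS, 0.06, 0.56 and 0.59 in PreMegE, 2.0, 2.01 and 1.67 in CFUe and 0.45, 0.89 and 0.89 in Ter119. They were 0.46, 0.13 and 0.20 in PreGM, 1.27, 1.40 and 1.12 in GMP and -0.96, -0.69 and -0.74 in Mac1Gr1. CFUe lay above every other fraction without overlap. Ccnb1 rose by 1.49 (SE 0.17, adjusted p = 1.55e-06) from PreMegE to CFUe (0.97 on the spike-in scale, adjusted p = 0.0233, not called), fell by 1.15 (adjusted p = 9.59e-06) to Ter119 and fell by 2.06 (adjusted p = 6.87e-09) from GMP to Mac1Gr1. The difference from PreGM to GMP, 0.999 (adjusted p = 0.000325), lay just under 2-fold. The difference between Ter119 and CFUe was -0.84 (adjusted p = 0.000211) with quantile scaling and -0.89 (adjusted p = 0.000139) in the series table, both under 2-fold. The other Ccnb1 probes gave -1.54 and -1.29 for it, both called. On these probes GMP was not separated from PreMegE (0.10 and 0.31, adjusted p = 0.704 and 0.251). PreGM against KLS was -0.44 and -0.56 (adjusted p = 0.115 and 0.0625), where the brightest probe gave 0.28.

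**Figure D4:**
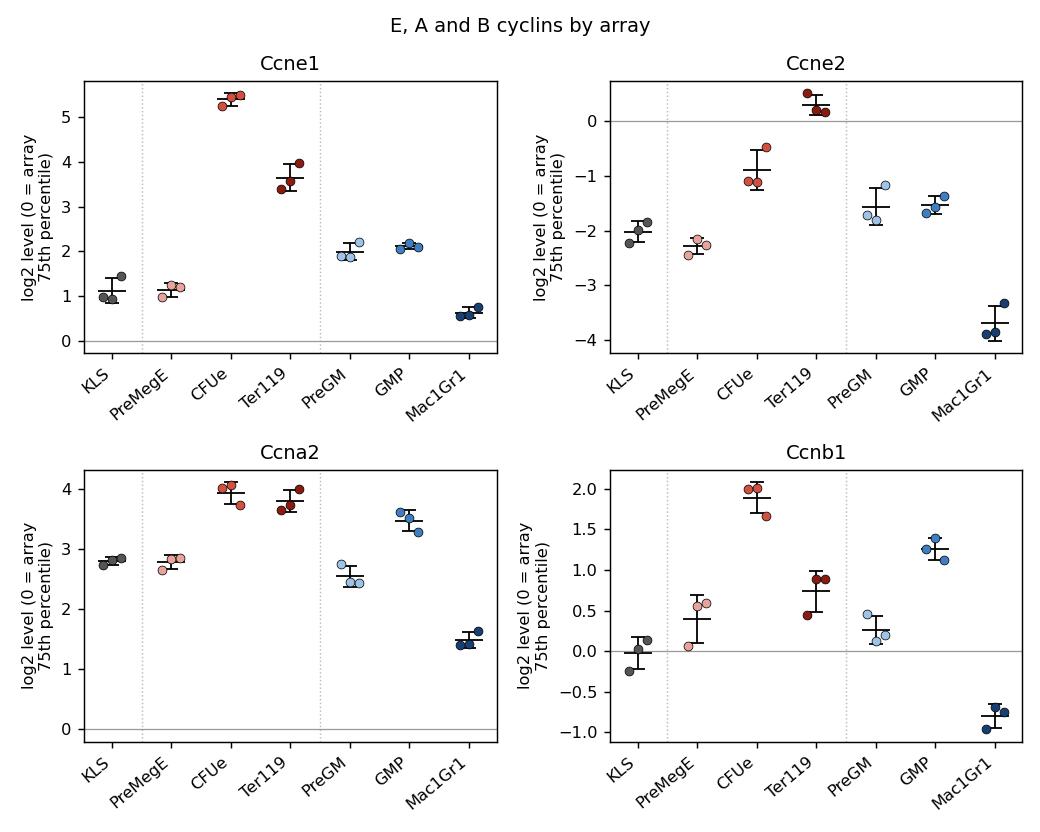
Levels of Ccne1, Ccne2, Ccna2 and Ccnb1 on each array (points, log2 relative to the 75th percentile of the array) by fraction, with mean and SD of 3 arrays (black); each panel has its own axis. Ccne1 and Ccnb1 peak in CFUe, Ccne2 is highest in Ter119, Ccna2 overlaps between CFUe and Ter119, and all 4 are lowest in Mac1Gr1. On the spike-in scale, not shown, Ter119 differed from CFUe by -0.20 for Ccne2 and by -1.51 for Ccna2.

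Compared between lineages at matched stages, the set differed most in the mature fractions. PreMegE and PreGM differed in none of the 9 genes, beside 12% of probes, although Cdk4, Ccne1 and Ccne2 had an adjusted p under 0.05 with differences of -0.55, -0.86 and -0.72, beside 27.5% of probes by that rule. Ter119 and Mac1Gr1 differed in 6 of 9 genes, beside 41.9% of probes (22% higher and 19.9% lower in Ter119), with Ccne2 (3.98), Ccne1 (3.02), Ccna2 (2.32), Cdk4 (1.58) and Ccnb1 (1.54) higher in Ter119 and Ccnd3 lower. On the spike-in scale 4 genes were called, 3 higher and 1 lower, and Cdk4 (0.86, adjusted p = 0.0143) and Ccnb1 (0.81, adjusted p = 0.0363) were under 2-fold. At the second step the change differed between lineages for Ccne1 and Ccne2 (2 of 9, beside 20.2%), a share close to the background. At the terminal step it differed for Ccnd2, Ccnd3, Cdk4, Ccne2 and Ccna2 (5 of 9, beside 39.9%). Of these terminal differences 4 were higher and 1 lower on the erythroid side, and on the spike-in scale 5 were higher and 0 lower, with Ccnd3 (-0.90) not called and Ccnb1 (1.56) called. On that scale the median of all probes was 0.58 for the terminal difference and -0.67 for Ter119 against Mac1Gr1. The share of all probes called was not counted there.

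Ratios of related genes within an array do not depend on scaling by a constant, and they show unequal change only. Relative to its KLS mean, log2 of Ccnd3 over Ccnd2 was 3.91, 4.01 and 4.35 in Ter119 and 6.22, 6.08 and 5.92 in Mac1Gr1, and between 0.10 and 1.20 in the other fractions after KLS. Both mature fractions stood apart from all progenitors. The ratio rose by 3.21 in Ter119 over CFUe and by 5.89 in Mac1Gr1 over GMP (exact permutation p = 0.1 each, the smallest that 3 against 3 arrays allow). Ccne1 over Ccne2 rose by 2.87 from PreMegE to CFUe and fell by 2.93 from CFUe to Ter119, so the E cyclins moved apart in CFUe and back in Ter119 (exact permutation p = 0.1 each). In GMP and PreGM it lay between 0.25 and 0.62. Cdk6 over Cdk4 rose by 1.42 from KLS to PreMegE, fell by 1.70 to CFUe and rose by 2.03 from GMP to Mac1Gr1, where Cdk4 fell more than Cdk6 (exact permutation p = 0.1 each). Ccnb1 over Ccna2 fell by 1.02 from CFUe to Ter119 and changed by -0.07 from GMP to Mac1Gr1 (exact permutation p = 0.1 and 0.7).

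Between lineages at matched stages, Ccne1 over Ccne2 was 2.64 higher in CFUe than in GMP and lower in Ter119 than in Mac1Gr1, by a difference of -0.95, without overlap of arrays. Ccnd3 over Ccnd2 differed by 0.70 between CFUe and GMP and by -1.98 between Ter119 and Mac1Gr1, also without overlap (exact permutation p = 0.1 for each of the 4, the smallest possible). A mean over stages sums such opposite differences. Over the 3 stages together the differences, none with a p under 0.05, were -0.34 for Ccnd3 over Ccnd2, 0.52 for Ccne1 over Ccne2, 0.03 for Cdk6 over Cdk4 and -0.23 for Ccnb1 over Ccna2 (two-sided exact permutation within stages, 8000 arrangements, p = 0.286, 0.207, 0.889 and 0.0782, and 0.382, 0.382, 0.889 and 0.313 after adjustment over 4 ratios). The smallest p the design allows is 0.00025. With the second probe of each gene, Ccne1 over Ccne2 was -0.37. That value includes PreMegE replicate 2, where the second Ccne1 probe read -7.20 and was not well above background. It also includes Mac1Gr1 replicates 2 and 3, where the second Ccne2 probe was not well above background.

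**Figure D5:**
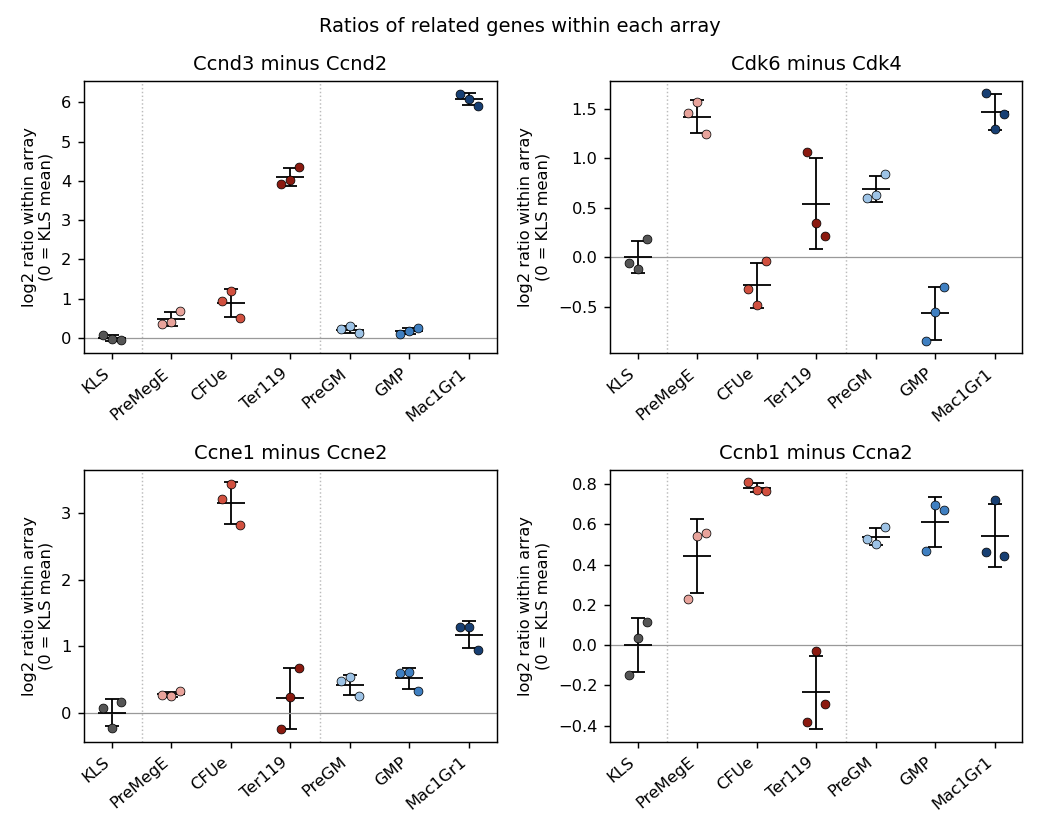
Log2 ratio of 2 related genes within each array (points), set to 0 at the KLS mean, by fraction, with mean and SD of 3 arrays (black); each panel has its own axis. Ccnd3 over Ccnd2 is 3.91 or more in all Ter119 and Mac1Gr1 arrays and at most 1.20 elsewhere, and Ccne1 over Ccne2 peaks in CFUe.

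Among genes that restrain cyclin-dependent kinases, 5 of 7 CDK inhibitors tested rose and none fell from CFUe to Ter119, beside 29.2% of all probes called higher, and on the spike-in scale 2 rose and 1 fell. Cdkn2d, an INK4 protein that blocks Cdk4 and Cdk6, rose by 4.33 (adjusted p = 6.63e-12), Cdkn1b, which binds cyclin and kinase complexes, by 2.66 (adjusted p = 2.19e-10), Cdkn1a, a p53 target of the same family, by 2.08 (adjusted p = 0.000204) and the INK4 gene Cdkn2c by 1.59 (adjusted p = 1.9e-08). From GMP to Mac1Gr1, 3 of 7 rose and 1 fell, beside 29.1% of all probes called higher and 27.6% called lower. Cdkn2d rose by 3.62 and Cdkn1b by 2.02 at that step, while Cdkn1a fell by 2.61 (adjusted p = 1.97e-05). On the spike-in scale 1 rose and 4 fell at the myeloid step.

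Among the retinoblastoma and E2F genes, 4 of 13 rose and 5 fell from CFUe to Ter119, and 1 rose and 6 fell from GMP to Mac1Gr1. Of all probes tested, 57.2% and 56.7% were called at these steps. E2f2, an activating E2F, rose by 4.60 and 4.72 at the 2 steps (adjusted p = 1.66e-13 and 1.23e-13), and E2f6, a repressive E2F, fell by 3.13 and 3.68 (adjusted p = 8.26e-12 and 1.11e-12). The E2F partner Tfdp2 rose by 3.75 and E2f7 by 2.05 in Ter119, and Rbl1 and E2f1 fell by 2.09 and 2.06 in Mac1Gr1. Of 10 CDK regulators, 2 rose and 5 fell in Ter119, and 1 rose and 5 fell in Mac1Gr1, beside the same shares of all probes. Cdc25b, a phosphatase that activates cyclin-dependent kinases, rose by 5.64 (adjusted p = 1.98e-15) and 1.72 (adjusted p = 2.42e-09), and Fzr1, an activator of the anaphase-promoting complex, rose by 2.44 in Ter119. Cks1b, a small subunit of these kinases, fell by 1.59 and 3.28, Cdc25a fell by 1.58 in Ter119, and Cdc25c and Cdc20 fell by 1.61 and 1.5 in Mac1Gr1.

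The cyclins and kinases outside the set moved in both directions. Of 13 other cyclins, 2 rose and 2 fell in Ter119, and 2 rose and 3 fell in Mac1Gr1, beside 57.2% and 56.7% of all probes called. Ccng2, a cyclin linked to cell cycle exit, rose by 3.22 in Ter119 and its relative Ccng1 fell by 1.69. Ccnh and Cdk7, which together form the CDK-activating kinase, fell by 2.73 and 3.12 in Ter119, and Ccnh fell by 2.82 in Mac1Gr1. In Mac1Gr1, Ccnl2 rose by 1.68, and Ccnf and the mitotic cyclin Ccnb2 fell by 1.46 and 1.16. Of 14 other kinases, 3 rose and 3 fell in Ter119, and 4 rose and 4 fell in Mac1Gr1, beside the same shares of all probes. Cdk1, the mitotic kinase, fell by 1.41 in Ter119 (adjusted p = 1.18e-05) and by 2.58 in Mac1Gr1 (adjusted p = 6.61e-09). Cdk10 fell by 1.92 and Cdk19 rose by 1.45 in Ter119, and Cdk18 fell by 4.24, Cdk8 fell by 1.77 and Cdk11b rose by 1.67 in Mac1Gr1.

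Proliferation genes fell in both mature fractions, 8 of 11 in Ter119 and 11 of 11 in Mac1Gr1, and none rose. Of all probes, 28% and 27.6% were called lower. The replication helicase genes Mcm2 and Mcm5 fell by 2.18 and 2.02 in Ter119 and by 4.11 and 3.88 in Mac1Gr1. Tyms, which makes thymidylate, fell by 1.35 and 3.63, and Pcna, the polymerase clamp, by 1.18 and 3.09. The count in Ter119 depended on the scaling and the arrays, with 2 lower and 1 higher with quantile scaling, 4 lower with the Xist block, 5 without Ter119 replicate 1 and 10 on the spike-in scale. Over the tested genes of each list the median changes at the erythroid and the myeloid step were 1.59 and 0.63 for the CDK inhibitors, -0.89 and -0.83 for the CDK regulators, -0.31 and -0.91 for the retinoblastoma and E2F genes, -0.31 and 0.50 for the other kinases, -0.10 and 0.63 for the other cyclins and -1.10 and -2.32 for the proliferation genes. On the spike-in scale the counts higher and lower at the 2 steps were 2 and 9, then 1 and 12 for the retinoblastoma and E2F genes, 0 and 10 at both steps for the other kinases, and 2 and 10, then 0 and 11 for the other cyclins. Without spike-in scaling, the medians of the lists stand beside 0.05 and 0.17 over all probes, and the shares called beside 57.2% and 56.7%. For the other cyclins, the other kinases, the CDK regulators and the retinoblastoma and E2F genes, the shares called lie near or below these. Their counts called are thus no result about the lists, and neither is that of the CDK inhibitors at the myeloid step. On the spike-in scale the medians of all probes were -1.33 at the erythroid step and -1.86 at the myeloid step. The share of all probes called was not counted on that scale, so the spike-in counts are no result about the lists either.

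The genes whose pattern over the 21 arrays was most like that of each D cyclin and kinase were found among 20787 probes by Pearson's r. For Ccnd2 they were Abhd14b (0.993), Zfp704 (0.992) and Fuz (0.990), and for Ccnd3 Cyb561d1 (0.991), Abtb1 (0.988) and Ovgp1 (0.986). For Cdk4 they were Fdx1 (0.998), Apex1 (0.997) and Mmachc (0.996), and for Cdk6 Tsacc (0.977), Bri3bp (0.974) and Calml4 (0.972). The arrays share fractions and scaling, so these values describe likeness over 7 fractions. Within the set, r was 0.92 between Ccnd2 and Cdk4, 0.94 between Ccnd2 and Cdk6, -0.96 between Ccnd3 and Cdk4, and 0.90 between Ccna2 and Ccnb1.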

How the data were processed

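Total RNA of each fraction was labelled with Cy3 and hybridised alone. The deposited scanner files hold a linear intensity per spot, which the authors background-corrected with Agilent Feature Extraction 10.7.1.1. The deposited series table holds log2 values normalized between arrays by the authors and served as an alternative. From the 43379 spots that were not controls, 80 to 283 outlier spots per array were left out, no spot was saturated, and spots of a probe were averaged. Probes that cleared the background flag in each of the 3 arrays of some fraction, 29526 in number, were fitted with limma 3.58.1 in R 4.3.3, as 1 mean per fraction over 21 arrays (median residual SD 0.262, 14 degrees of freedom). The fit was tested on simulated data. The number of arrays limits the precision. Fractions and replicate numbers came from the labels, and gene names from RefSeq (GRCm38.p6, names only). The array annotation names mm9, so no coordinates are given for probes or genes, apart from the promoter windows on GRCm38.p6. The members and lists were chosen with earlier results of these data known. Ratios with Ccnd1 were not run.

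Named genes are the members, the genes most like them, and of each list up to 4 genes with the largest called change at each terminal step among those well above background on all 6 arrays. Alternatives were quantile and spike-in scaling (7 probes), normexp with an offset of 50, the series table, no filter on dim probes, no minimum fold, the second-brightest probe, slide and replicate blocks, and each array left out. Blocks for the run of slide numbers and for Xist against Ddx3y were chosen after seeing the data. Figures used Python 3.11.15, matplotlib 3.10.9 and pandas 2.3.3.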

Additional observations from a re-analysis of the deposited data

Results flagged for a closer look

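For 6 genes the change differed between the erythroid and the myeloid lineage at the same step, by a limma test of the difference itself (erythroid minus myeloid, Benjamini-Hochberg adjusted over all probes tested). These were 2 of 9 genes at the second step, beside 20.2% of all probes, and 5 of 9 at the terminal step, beside 39.9%. The share at the second step is close to the background, so that count is no result about the set. At the second step, the change of Ccne1 was higher by 4.14 (SE 0.23, adjusted p = 1.65e-09), 4.26 from PreMegE to CFUe beside 0.13 from PreGM to GMP. Ccne2 was higher by 1.36 (adjusted p = 0.00174) at that step, 1.39 beside 0.03, and read -0.17 on the spike-in scale.

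At the terminal step, Ccne2 was higher by 3.33 (SE 0.29, adjusted p = 7.19e-08), since it rose in Ter119 and fell in Mac1Gr1. The difference was 1.85 for Ccna2 (adjusted p = 4.02e-07), with -0.13 beside -1.99. Ccnd2 and Cdk4 fell less on the erythroid side, by differences of 1.14 (adjusted p = 0.00137) and 1.25 (adjusted p = 1.29e-05). Ccnd3 rose less on that side, by a difference of -1.55 (SE 0.18, adjusted p = 1.92e-06), which was -0.90 (adjusted p = 0.0703) on the spike-in scale and -0.99 in the series table. The Ccnd2 difference dropped under 2-fold without CFUe replicate 1 (0.99), with the Xist block (0.87) and on the second probe (0.85). The Ter119 arrays carried granulocytic and B cell transcripts, whose part in these terminal differences was not tested.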

How the results depend on the processing

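Among 99 pairs of a gene and a comparison, 36 were called. Of these calls, 34 were kept with quantile scaling, 33 with the series table, 34 with normexp, 36 without the filter on dim probes, 35 with the slide block, 36 with the run of slides as a block, 33 with the Xist block and 32 with the second-brightest probe. Ccnd3, Cdk4 and Ccna2 had only 1 probe each, which was used again in the second-probe setting, so their calls could not change there. With each array left out in turn, 754 of 756 calls were kept. Replicate numbers did not pair the arrays (median correlation of deviations 0.003 over 63 pairs), and the replicate block changed no call and no count (7 genes in Ter119 against CFUe, 8 in Mac1Gr1 against GMP).

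Spike-in scaling changed the most, keeping 24 calls, with medians of all probes moved to between -1.86 and 0.99. It turned Ccne2 in Ter119 against CFUe to -0.20, Ccnd3 and Cdk4 in CFUe against GMP to -1.30 and -1.04, and at the second step between lineages Ccnd3 to -1.44, Cdk6 to -1.09, Ccne2 to -0.17 and Ccna2 to -1.30. Called genes then numbered 0 for PreMegE against KLS and for PreGM against KLS, 4 for GMP against PreGM, 4 for CFUe against GMP and 5 for the second step between lineages. The split of calls for CFUe against PreMegE turned from 4 higher and 0 lower to 1 and 2, and that for Ter119 against Mac1Gr1 from 5 and 1 to 3 and 1. For GMP against PreGM the 4 called genes, Ccne1 (1.14), Ccne2 (1.05), Ccna2 (1.94) and Ccnb1 (2.01), were all higher, and Cdk6 was no longer called. The median of all probes at that step was itself 0.99 on the spike-in scale. The counts of this paragraph stand without the share of all probes called in each setting, and are no result about the set. The slide block gave 2 for GMP against PreGM and 2 for CFUe against GMP, and the run of slides 2 for GMP against PreGM. The Xist block gave 2 for PreGM against KLS and 2 for PreMegE against PreGM. Without a minimum fold the counts were 2 (PreMegE against KLS), 8 (CFUe against PreMegE), 4 (PreGM against KLS), 4 (GMP against PreGM), 3 (PreMegE against PreGM) and 7 (CFUe against GMP). The second-brightest probe gave 0 for PreGM against KLS and 0 for GMP against PreGM.

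With each array left out, counts ranged from 0 to 2 for PreGM against KLS, from 1 to 3 for GMP against PreGM, from 4 to 5 for CFUe against PreMegE and from 4 to 6 for the third step between lineages. PreGM against KLS gave 0 without KLS replicate 2 and 2 without KLS replicate 3, and GMP against PreGM gave 3 without PreGM replicate 1 or GMP replicate 3. The cause of these shifts was not tested. The dimmest levels, those of Cdk2 and Ccne2, lay nearest to background.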
